A study of Mus musculus with 6 samples.

Results

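Kitl encodes stem cell factor, and Kit encodes the receptor tyrosine kinase that binds it. Both genes were followed through every probe set that the platform annotation assigns to them and to no other gene. This gave 4 probe sets for Kitl and 2 for Kit, that is 2 of the 18193 genes and 6 of the 34945 probe sets that name 1 gene. RNA came from the femurs of 3 individual male C57BL/6 mice, 8 weeks old and injected intraperitoneally with saline, with 3 endosteal and 3 central arrays. Endosteal RNA was whatever Trizol, a phenol-based lysis reagent, took up inside the shaft once its marrow had been washed out. Central RNA came from the cells that the wash carried out, which were spun down before the same reagent was added. Both regions therefore came from the shafts of saline-injected animals, and the central cells alone were pelleted before lysis. The labels mark the arrays of each region A, B and C, and nothing states that a letter stands for 1 mouse. The p-values therefore measure the spread between these arrays, whose number limits the precision.

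Stem cell factor is made as a transmembrane protein on stromal and endothelial cells, and proteases release a soluble form. Binding pairs the receptors, which then phosphorylate themselves and recruit adaptor proteins, kinases and phosphatases. In marrow, haematopoietic stem and progenitor cells and mast cells carry the receptor and need the ligand for their maintenance. Perivascular stromal cells and endothelial cells are known sources of the ligand in mouse marrow. Melanocytes and germ cells depend on the same pair elsewhere in the body.

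The RefSeq promoter entries of both genes are shown because Kitl passed the test given below and Kit did not. Regulators of Kit that bind GATA motifs and E-boxes are also among the genes described. Each runs 5′ to 3′, with 250 bases before and 50 bases after the annotated start, in build GRCm38.p6 on the plus strand. Capitals mark matches, on either strand, to a TATA box (spelled TATAAA), a GC box (spelled GGGCGG), an E-box (spelled CANNTG) and a GATA motif (spelled GATAA).
Kitl, chr10:100015571-100015870: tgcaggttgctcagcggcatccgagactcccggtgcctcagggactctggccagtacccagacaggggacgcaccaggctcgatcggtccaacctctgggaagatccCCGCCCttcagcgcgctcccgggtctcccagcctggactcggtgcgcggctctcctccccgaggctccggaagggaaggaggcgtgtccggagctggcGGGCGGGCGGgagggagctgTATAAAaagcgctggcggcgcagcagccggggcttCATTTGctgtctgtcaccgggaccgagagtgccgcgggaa
Kit, chr5:75574737-75575036: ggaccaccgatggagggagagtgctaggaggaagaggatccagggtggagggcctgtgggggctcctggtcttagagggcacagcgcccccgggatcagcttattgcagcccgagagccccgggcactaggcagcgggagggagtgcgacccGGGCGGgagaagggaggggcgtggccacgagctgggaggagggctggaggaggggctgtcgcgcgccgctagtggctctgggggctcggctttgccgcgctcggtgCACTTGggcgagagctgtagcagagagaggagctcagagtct
The Kitl window held 1 TATA box, 25 bases before the start, with 3 GC boxes, of which 2 overlap, and 1 E-box. The Kit window held no TATA box, 1 GC box and 1 E-box, and a second RefSeq entry for Kit starts 4 bases downstream. Neither window held GATAA. Of 32851 promoter windows of this length, 13.6% held TATAAA, 35.7% GGGCGG, 72.3% CANNTG and 25.4% GATAA. GC content was 68.7% for Kitl and 69.0% for Kit. The arrays do not measure which promoter sequence was used, and a match is a description of the letters only.

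Each array as deposited had a trimmed mean of about 500, and the median signal was 120 to 131 on endosteal and 97.2 to 106 on central arrays. Signals of different arrays correlated at r = 0.927 to 0.929 within endosteal RNA, 0.964 to 0.966 within central RNA and 0.912 to 0.926 between regions, across probe sets. The ratio of the 3′ to the 5′ actin control, which rises with RNA breakdown, was 1.32 to 1.40 on endosteal and 1.15 to 1.23 on central arrays. For Gapdh it was 0.767 to 0.881 on endosteal and 0.820 to 0.888 on central arrays. The part of this difference in the results was not tested. Changes are given as log2(signal + 16), endosteal minus central, from limma over 45037 probe sets. A probe set was called at a two-sided Benjamini-Hochberg adjusted p under 0.05. Called higher were 1444 probe sets (3.21%) and called lower 582 (1.29%).

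Kitl was higher in endosteal RNA. Its brightest probe set, 1415855_at, had signals of 2355, 2559 and 2473 on the endosteal arrays in letter order, against 270, 377 and 491 on the central arrays. Every endosteal array lay above every central array, and the central arrays spread more widely in relative terms. The means were 2462 ± 102 in endosteal and 379 ± 111 in central RNA (SD, n = 3 each), a log2 change of 2.69 (SE 0.24, 95% interval 2.10 to 3.28), or 6.44-fold, with an adjusted p of 0.00898 by limma. A share of 0.602% of probe sets had a larger log2 change. Because the mice supplied both regions, the change was taken by letter too: letter A gave 3.05, B 2.71 and C 2.30. With the letter as a block the adjusted p was 0.0921 and the call was lost, as it was for every probe set called on the array. Without central array B the adjusted p was 0.0539, and the adjusted p over all 16 alternatives lay between 7.08e-06 and 0.0921.

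The second Kitl probe set, 1448117_at, had signals of 786, 943 and 766 in endosteal RNA, against 206, 205 and 325 in central RNA. Its groups did not overlap either, with means of 832 ± 96.7 and 245 ± 69.4 (SD, n = 3 each), endosteal first. The log2 change was 1.72 (SE 0.23, 95% interval 1.15 to 2.29), 3.30-fold, with an adjusted p of 0.0218. This call rested on more arrays: it was lost when any array other than central C was left out, at an adjusted p of 0.0818 without central A, 0.0864 without central B, 0.0604 without endosteal A, 0.0658 without endosteal B and 0.0539 without endosteal C. Over its 15 alternatives the adjusted p lay between 0.000253 and 0.116, the highest with the letter block.

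The other two Kitl probe sets were dim and did not pass the test. Probe set 1415854_at had signals of 78.9, 157 and 100.04 in endosteal and 33.9, 56.9 and 57.7 in central RNA, a log2 change of 0.94 (95% interval 0.22 to 1.66, adjusted p = 0.132). Probe set 1426152_a_at had signals of 141, 100.3 and 103 in endosteal and 63.9, 49.9 and 97.8 in central RNA, a log2 change of 0.62 (95% interval -0.02 to 1.26, adjusted p = 0.230). In both, each endosteal array lay above each central array, the lowest endosteal only just above the highest central for 1426152_a_at. That arrangement was seen for all 4 Kitl probe sets and for 17.8% of all probe sets. The mean signal of both dim probe sets lay below the median of 113 over all probe sets, where the added 16 understates a change. The annotation pairs 3 of the 4 with the same target record, so these do not measure independent sequences.

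**Figure D1:**
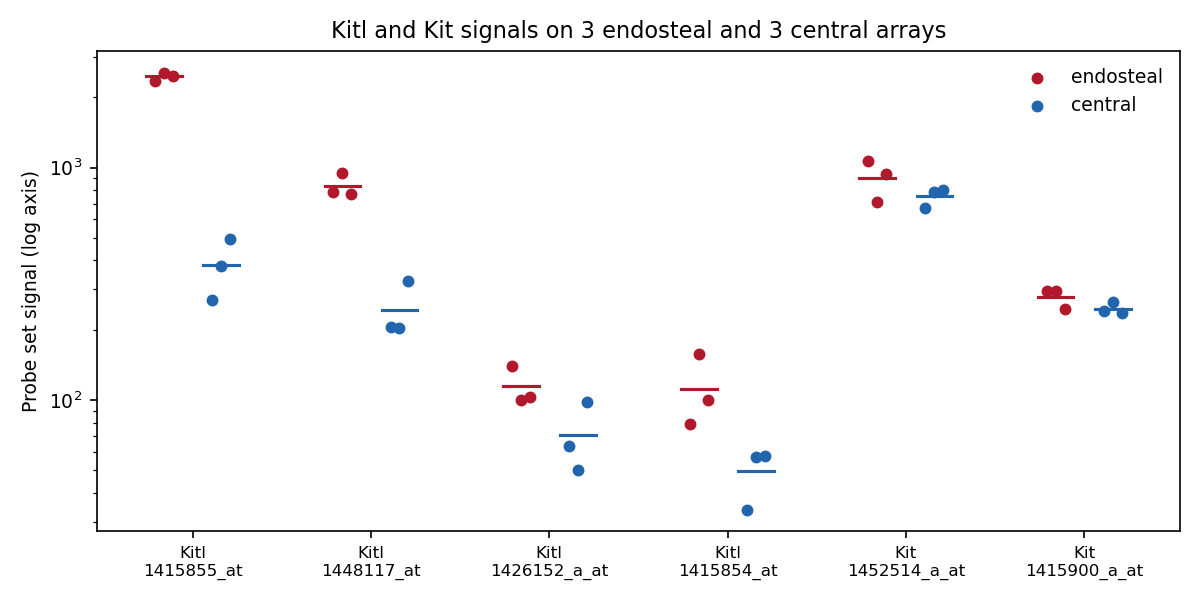
Signal of each Kitl and Kit probe set on a log axis, 1 point per array, with endosteal arrays left of central arrays. For all 4 Kitl probe sets the endosteal points lie above the central ones, whereas for both Kit probe sets the points of the 2 regions overlap.

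The Kitl probe sets differed in how far they moved. The change of 1415855_at exceeded that of 1448117_at by 0.96, that of 1415854_at by 1.74 and that of 1426152_a_at by 2.07 on the log2 scale, measured array by array. Each of these had an exact two-sided permutation p of 0.1, the smallest that 3 arrays against 3 allow, and 0.14 after adjustment over 7 pairs. The 2 dim probe sets differed from each other by -0.32 (exact permutation p = 0.7, adjusted 0.8). Averaged over its 4 probe sets, Kitl had a log2 change of 1.49 with an adjusted p of 0.0140, and the mean over the 2 Kit probe sets was 0.20 with an adjusted p of 0.429. The study's own measure, the log2 ratio of mean signals, came to 2.70 for 1415855_at, 1.76 for 1448117_at, 1.18 for 1415854_at and 0.70 for 1426152_a_at. For Kit it came to 0.27 for 1452514_a_at and 0.17 for 1415900_a_at.

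Kit showed no change past the test. Its brightest probe set, 1452514_a_at, had signals of 1062, 713 and 936 on endosteal arrays and 673, 783 and 798 on central arrays. Endosteal array B lay below 2 of the central arrays, so the groups overlapped. The means were 904 ± 177 in endosteal and 751 ± 68.0 in central RNA (SD, n = 3 each), a log2 change of 0.25 (SE 0.20, 95% interval -0.25 to 0.74) with an adjusted p of 0.527. By letter, A gave a change of 0.65, B of -0.13 and C of 0.23.

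The other Kit probe set, 1415900_a_at, gave signals of 294, 295 and 246 in endosteal and 241, 263 and 237 in central RNA. These too overlapped, with means of 278 ± 28.1 in endosteal and 247 ± 13.9 in central RNA (SD, n = 3 each). The log2 change was 0.16 (SE 0.15, 95% interval -0.22 to 0.54, adjusted p = 0.599). The 2 Kit probe sets differed in their change by 0.09 (exact permutation p = 0.8). The intervals reach down to -0.25 and up to 0.74 on the log2 scale, so the test does not show that Kit was equal in the 2 regions. In bulk RNA, fewer cells that carry a transcript cannot be told apart from less transcript in each cell.

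The ligand and receptor were then set against each other on the same array, taking the brightest probe set of each. The log2 signal of Kitl minus that of Kit was 1.14, 1.82 and 1.39 on the endosteal arrays in letter order, and -1.27, -1.02 and -0.68 on the central arrays. The regions did not overlap. The means were 1.45 ± 0.35 in endosteal and -0.99 ± 0.29 in central RNA (SD, n = 3 each), a difference of 2.44. The exact two-sided permutation p was 0.1, the smallest this design allows. A ratio of 2 probe sets has no meaning at 0, since their brightness per molecule differs, so only the difference between regions can be read. Scaling an array by 1 factor nearly cancels in it. Over all 8 pairings of a Kitl with a Kit probe set the difference was 0.37 to 2.53. In 5 of them the regions did not overlap (exact permutation p = 0.1, adjusted 0.16). The pairings reuse the same probe sets and arrays, so they are not independent. Of single probe sets, 17.8% had every endosteal array above every central array.

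**Figure D2:**
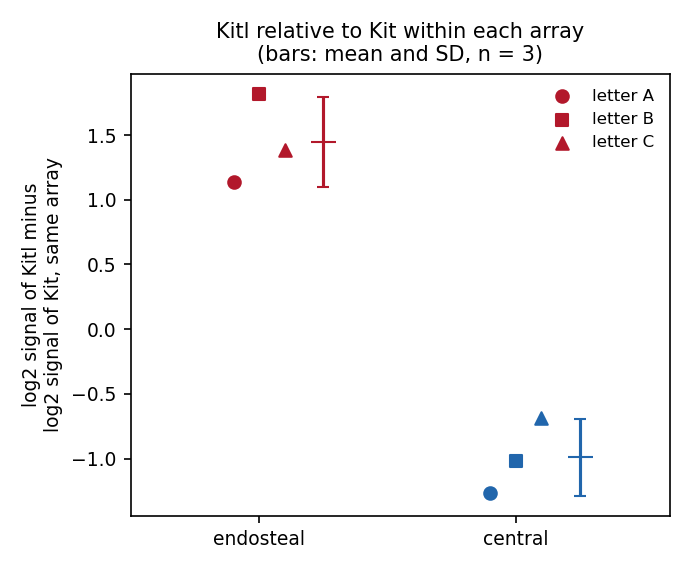
Log2 signal of Kitl minus log2 signal of Kit within each array, with endosteal arrays on the left and central arrays on the right. Symbols give the letter of the array and bars give the mean and SD over 3 arrays, 1.45 ± 0.35 in endosteal and -0.99 ± 0.29 in central RNA.

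The direction for Kit depended on how arrays were scaled. With each array centred on its median, both Kit probe sets lay slightly below 0, at -0.015 and -0.10, while the median of all probe sets was -0.18. Scaled on 24 poly-A control probe sets, which report RNA added during labelling, Kit came to 1.25 (adjusted p = 0.0114) and 1.16 (adjusted p = 0.00863), against a median of 1.08 over all probe sets. Median centring and poly-A scaling each move every probe set by the same amount. The distance of Kit or Kitl from those medians therefore could not change. Kitl 1415855_at had a change of 2.42 after median centring and 3.69 after poly-A scaling. Quantile normalisation can alter that distance. It gave 2.70 for 1415855_at, with 0.28 and 0.10 for Kit, against a median of -0.03 over all probe sets. As deposited the median over all probe sets was 0.08, and 71.3% of called probe sets were higher. The share was 38.0% after median centring, 65.2% after quantile normalisation and 99.9% after poly-A scaling.

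**Figure D3:**
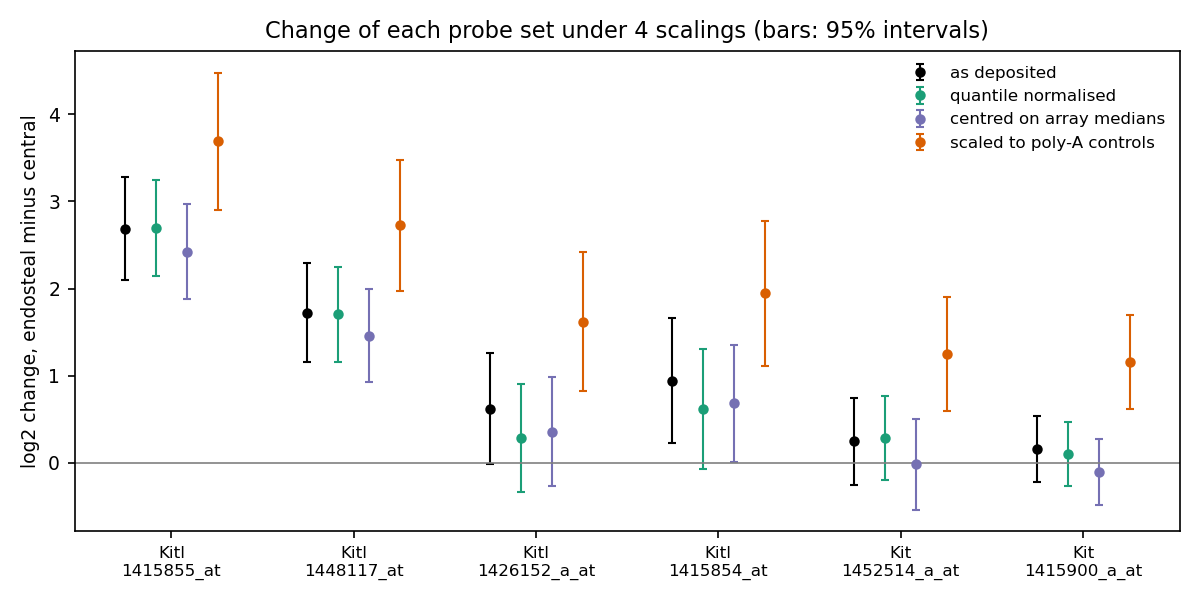
Log2 change, endosteal minus central, of each Kitl and Kit probe set under 4 scalings, with 95% intervals. The points of the 4 Kitl probe sets stay above 0 at every scaling. The 2 Kit probe sets lie near 0 except under poly-A scaling, where the median change over all probe sets is 1.08.

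Kit belongs to a family of receptor tyrosine kinases with Csf1r, Flt3, Pdgfra and Pdgfrb. Counted with 1 probe set a gene, 849 genes (4.67%) were called higher and 277 (1.52%) lower, and the median log2 change over 18193 genes was 0.10. Of the 4 relatives, 2 rose and none fell, with a list median of 1.39. Pdgfra, the alpha receptor for platelet-derived growth factors, averaged 748 ± 222 in endosteal and 76.2 ± 41.7 in central RNA, a log2 change of 3.11 (adjusted p = 0.0219), and the mean of its 3 probe sets gave 1.90. Pdgfrb, the beta receptor, averaged 2288 ± 614 in endosteal and 408 ± 24.0 in central RNA, 2.41 on the log2 scale (adjusted p = 0.0104). Csf1r, the receptor of macrophage colony-stimulating factor, had a change of 0.37 (adjusted p = 0.205), and Flt3, a receptor on early progenitors, -0.09 (adjusted p = 0.829).

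Ligands of those receptors include the growth factors of macrophages and of stromal cells. Of 6 measured, 4 rose and none fell, with a median of 1.44, and Flt3l had no probe set used here. Over all genes 4.67% were called higher and 1.52% lower. Il34, a second ligand of Csf1r, averaged 259 ± 37.3 in endosteal and 42.2 ± 15.97 in central RNA, a log2 change of 2.27 (adjusted p = 0.0154). Pdgfc rose by 1.62 (adjusted p = 0.0268), Pdgfb by 1.25 (adjusted p = 0.0422) and Csf1 by 0.99 (adjusted p = 0.0482). Leaving out 1 array left between 0 and 2 of these calls, and the Csf1 call was lost with any of the 6 arrays left out.

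A further list held proteases reported to cut stem cell factor or close relatives from the cell surface. Of 7, 3 fell and none rose, with a median of -0.26, beside 1.52% lower and 4.67% higher over all genes. Leaving out any 1 array ended all 3 calls, and after poly-A scaling 4 were called higher and none lower. Adam9, a membrane-anchored metalloprotease, had each endosteal array above each central array, with a change of 0.73 (adjusted p = 0.0569). Mmp9, a secreted gelatinase that releases stem cell factor in mouse marrow, averaged 11226 ± 241 in endosteal and 22874 ± 4069 in central RNA, a log2 change of -1.01 (adjusted p = 0.0408). Adam8, a membrane-anchored metalloprotease of leukocytes, fell by 1.38 (adjusted p = 0.0232). Adam19, another membrane-anchored metalloprotease, fell by 0.90 (adjusted p = 0.0464) as deposited and had a change of 0.10 after poly-A scaling. That scaling gave -0.011 for Mmp9 and -0.38 for Adam8. Adam17, which sheds many surface proteins, had a change of -0.26 (adjusted p = 0.439), and 0.74 after poly-A scaling.

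Inside the cell, adaptors, kinases and phosphatases pass on the receptor's signal. Of 31 measured signal transducers, 2 rose and 1 fell, with a median of -0.31. Over all genes 4.67% were called higher and 1.52% lower, and with so few calls nothing particular to the pathway is read from these counts. Grb10, an adaptor that binds activated receptors, rose by 1.61 (adjusted p = 0.0335), and Gab1, a docking protein, rose by 1.19 (adjusted p = 0.0377). Prkcb, a protein kinase C isoform, fell by 0.96 (adjusted p = 0.0276), and had a change of 0.05 after poly-A scaling. Of 15 attenuators measured, 1 rose and none fell, with a median of -0.28. It was Spry1, an inhibitor of the Ras and MAP kinase route, with a change of 1.25 (adjusted p = 0.0444).

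Transcription regulators known to act on Kit include GATA and E-box factors. Of 12, none rose and 1 fell, with a median of -0.14, beside 4.67% higher and 1.52% lower over all genes. Zfpm1, a cofactor of GATA factors, averaged 2024 ± 231 in endosteal and 3908 ± 132 in central RNA, a log2 change of -0.95 (adjusted p = 0.0350), which was 0.05 after poly-A scaling. Gata2, a GATA factor of progenitors and mast cells, averaged 382 ± 42.6 in endosteal and 591 ± 27.2 in central RNA. Its change was -0.61 (adjusted p = 0.0902) as deposited and 0.39 after poly-A scaling. After median centring Gata2 passed the threshold, at -0.88 (adjusted p = 0.0426 by limma). Mitf, which drives Kit in melanocytes and mast cells, had a change of 0.50 (adjusted p = 0.374) by its brightest probe set and -0.20 by the mean of its probe sets.

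Markers of the cells that carry Kit were set beside the background shares, 4.67% for a rise and 1.52% for a fall with 1 probe set a gene. Whether any of these lists departed from that background was not tested. Of 12 stem and progenitor genes measured, 2 rose and none fell, with a median of -0.02, and their summed signal was 9404 to 10882 on endosteal and 10577 to 12384 on central arrays. Mecom, a transcription factor of stem cells, averaged 89.5 ± 15.9 in endosteal and 8.09 ± 2.83 in central RNA (change 2.13, adjusted p = 0.00884). Its central signals of 5.67, 7.40 and 11.2 lay below the added 16, so the size of this change rests on that setting. The log2 ratio of its mean signals was 3.47. Averaging its 3 probe sets gave 0.59 (adjusted p = 0.198). Fgd5, found in stem cells and in endothelium, rose by 2.05 (adjusted p = 0.0392). Cd34, a progenitor and endothelial surface protein, had a change of -0.18 (adjusted p = 0.614) as deposited and 0.82 after poly-A scaling. Of 10 mast cell and basophil genes 1 fell, Fcer1a, a subunit of the high-affinity IgE receptor, by 1.01 (adjusted p = 0.0467), with a list median of -0.23. Their summed signal was 8359 to 8605 on endosteal and 9864 to 11813 on central arrays, and 2 members lay below 50 in both regions. Cpa3, a mast cell protease, had a change of -0.41 (adjusted p = 0.236). None of 7 erythroid progenitor genes and none of 6 melanocyte genes was called, with medians of -0.16 and 0.21, and 3 melanocyte genes lay below 50 in both regions. The part of these cell types in the Kit values was not tested.

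Some markers of the cells known to make Kitl rose, and none was called in either list with the letter as a block. The background shares over all genes were 4.67% higher and 1.52% lower. Of 12 perivascular stroma genes 9 rose and none fell, with a median of 2.27 and a summed signal of 35832 to 42256 on endosteal against 6404 to 10946 on central arrays. Lepr, the leptin receptor that marks perivascular stromal cells, averaged 1183 ± 233 in endosteal and 216 ± 50.3 in central RNA (change 2.37, adjusted p = 0.0114). Cxcl12, a chemokine that retains stem cells in marrow, averaged 16261 ± 1717 in endosteal and 2711 ± 1008 in central RNA (change 2.64, adjusted p = 0.0145). This call was lost without central A, central B or endosteal B. Foxc1, a transcription factor of those cells, rose by 2.51 (adjusted p = 0.0104). Of 13 endothelial genes 5 rose and none fell, with a median of 1.46 and a summed signal of 6677 to 7259 on endosteal against 2227 to 3146 on central arrays. Tek, the angiopoietin receptor, rose by 2.44 (adjusted p = 0.00808), Emcn, a sialomucin of marrow sinusoids and capillaries, by 2.77 (adjusted p = 0.0181) and Sox18, an endothelial transcription factor, by 2.83 (adjusted p = 0.0496). Cdh5, the cadherin of endothelial junctions, averaged 196 ± 56.8 in endosteal and 120 ± 12.6 in central RNA and did not pass (change 0.61, adjusted p = 0.193).

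Markers of bone and muscle were higher too, beside background shares of 4.67% higher and 1.52% lower over all genes. Of 6 osteoblast genes measured 5 rose, with a median of 4.13 and a summed signal of 63328 to 76833 on endosteal against 1575 to 2057 on central arrays. The bone matrix genes Col1a1, Col1a2 and Postn rose by 6.34, 6.10 and 4.96 (adjusted p = 0.00333, 0.000749 and 0.00374). All 12 skeletal muscle genes rose, with a median of 6.64 and a summed signal of 72838 to 145064 on endosteal against 770 to 1132 on central arrays, although the bones had been rubbed to take muscle off. Myl1 and Tnnc2, parts of the contractile apparatus, rose by 8.75 and 8.17, and Mb, myoglobin, by 7.21 (adjusted p = 0.00333, 0.00338 and 0.00366), while the mean of the 2 Mb probe sets gave 3.56. Of 10 marrow blood cell genes 1 rose and 1 fell, with a median of 0.33. Their summed signal was 422182 to 438635 on endosteal and 293181 to 314360 on central arrays. That sum was high in both regions but is weighted towards the brightest genes. S100a9, a calcium-binding protein of neutrophils, rose by 0.82 (adjusted p = 0.0433), but had a change of 0.11 (adjusted p = 0.704) after quantile normalisation and 0.56 (adjusted p = 0.103) after median centring. Cd79a, part of the B cell receptor, fell by 1.71 (adjusted p = 0.0267). The part of muscle, bone, stromal or endothelial RNA in the Kitl result was not tested.

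**Figure D4:**
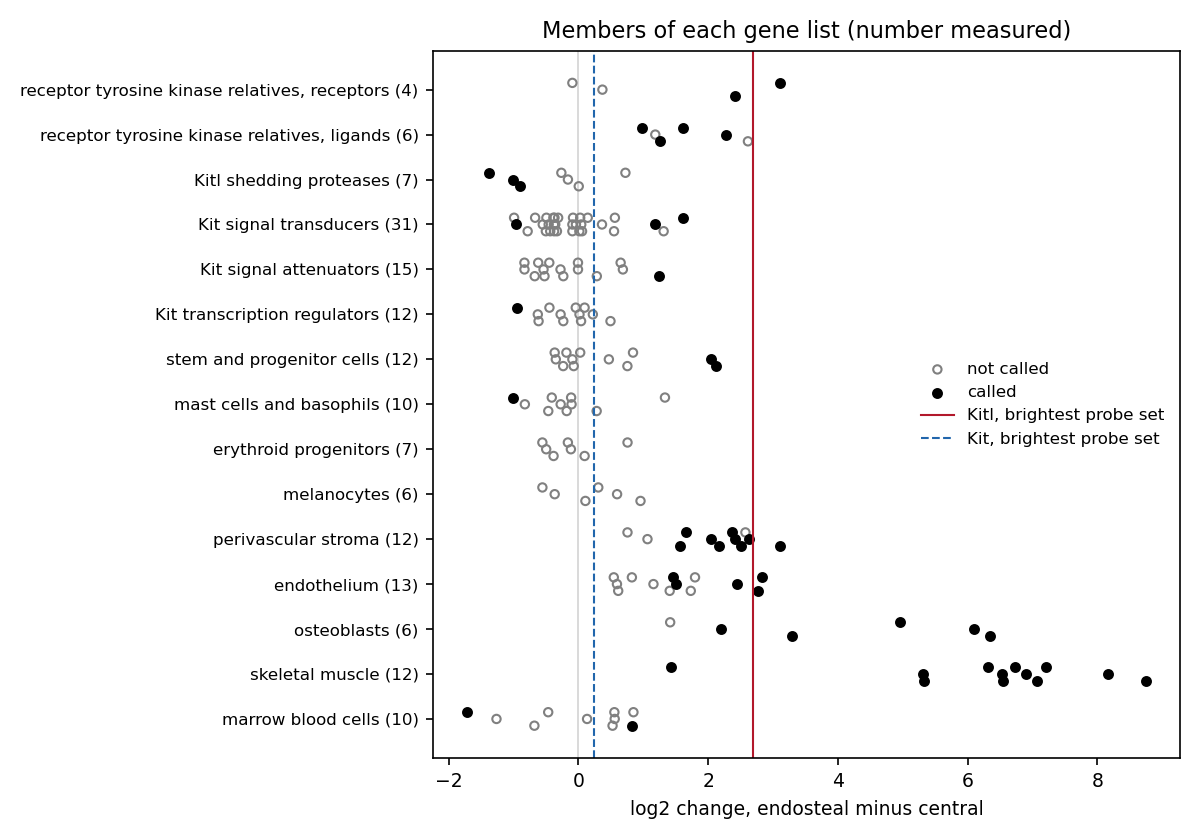
Log2 change, endosteal minus central, of each measured member of the 15 gene lists, with called members filled and others open. Vertical lines mark the brightest Kitl probe set at 2.69 and the brightest Kit probe set at 0.25; stroma members range over 0.76 to 3.11 and endothelial members over 0.55 to 2.83, and most skeletal muscle and osteoblast members lie beyond the Kitl line.

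Left out 1 at a time, the arrays changed these list counts: the stroma calls numbered 0 without central B and up to 7 otherwise, the endothelial calls 1 to 4, the muscle calls 10 or 11 and the osteoblast calls 4 or 5. The stem and progenitor calls numbered 0 or 1, the receptor relatives 0 to 2 and the transducers that rose 0 or 1. The single attenuator, Zfpm1, Prkcb, Fcer1a and S100a9 calls were each lost whichever array was left out. Of the 35 called genes named here besides Kitl, 7 stayed called without any 1 array: Tek, Col1a1, Col1a2, Postn, Myl1, Tnnc2 and Mb. The other 28 lost their call without at least 1 array: 22 without central A, 27 without central B, 16 without central C, 18 without endosteal A, 21 without endosteal B and 14 without endosteal C. Scaling turned some list medians. After poly-A scaling, the medians were 0.74 for the proteases, 0.69 for the transducers, 0.72 for the attenuators and 0.86 for the regulators. They were 0.98 for stem and progenitor cells, 0.77 for mast cells and basophils and 0.84 for erythroid progenitors. The median over all probe sets was then 1.08, and this scaling moves every probe set by the same amount. After quantile normalisation the medians were -0.07 for melanocytes and -0.21 for marrow blood cells. After median centring that for melanocytes was -0.05. The same centring called 4 transducers, 3 attenuators and 3 regulators lower, with 1, 1 and 0 higher, while the median over all probe sets was -0.18.

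The genes whose profile over the 6 arrays lay closest to the brightest Kitl probe set were picked from 10844 genes above the median level, by the root mean square difference of mean-centred log2 signals. Cxcl12 came first at 0.112, then Itm2a, a membrane protein, at 0.115 and Wwtr1, a transcriptional co-activator, at 0.140. Serping1, the inhibitor of complement C1, followed at 0.152 and Abcc9, a subunit of potassium channels, at 0.154. All 5 rose, by 2.64, 2.48, 2.77, 2.84 and 2.63, which the choice by a profile like that of Kitl fixed in advance. For the brightest Kit probe set the closest were Zfp523, a zinc finger protein, at 0.0465, Clec2d, a C-type lectin, at 0.0528 and Trmt10c, a mitochondrial tRNA methyltransferase, at 0.0574. Nup93 of the nuclear pore followed at 0.0668 and Psmb6 of the proteasome at 0.0688. None of these was called, with changes between 0.18 and 0.29, which likewise follows from how they were picked. All but Psmb6 lay below 0 after median centring, and the order rests on 6 arrays of 2 regions.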

How the data were processed

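RNA was measured on 6 Affymetrix mouse arrays, 3 endosteal and 3 central, after one-cycle labelling of 2 micrograms of total RNA, per the labels' protocols. The authors deposited 1 linear intensity per probe set and array, for 45101 probe sets. The software that summarised the probes is not given in the sources used here. Each array has the same mean after trimming 2% at each end, and the values were used as deposited. Controls (64) were left out of the tests.

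Probe sets were named from the platform annotation, and their symbols checked through gene identifiers against RefSeq for GRCm38.p6 (34741 of 34945 found, 0 changed). A further 932 named several genes and 9160 were unnamed here. A gene is represented by its brightest probe set. The test was limma 3.58.1 (R 4.3.3) on log2(signal + 16), two-sided, with no term but region, and p-values were adjusted over all 45037 probe sets. Exact permutation tests were used for ratios within an array. The procedure was tested on simulated data.

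The members, the 15 gene lists and the named genes were chosen with earlier results of these data known. Named were every Kitl and Kit probe set; from each list up to 3 called members with the largest change in the direction most took, and up to 1 in the other; a set of individual genes; and the 5 genes closest in profile to each brightest probe set. Where a list is trimmed for want of probe sets, members without one are not analysed here.

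Alternatives covered the pseudocount, scaling, a floor on level, a letter block, an intensity trend, summary over probe sets and leaving out each array. The letters recur in both regions, and the design takes both regions from 3 mice without stating that a letter is 1 mouse. Deviations from the region means correlated between same-letter arrays with r = 0.04 (A), 0.03 (B) and 0.01 (C) over all probe sets, and 0.16, 0.07 and 0.04 above the median level. The main comparison, like the study's own ratio of averages, has no block.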

Additional observations from a re-analysis of the deposited data

How the results depend on the processing

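As deposited, 1444 probe sets were called higher and 582 lower (6007 and 4244 at an unadjusted p under 0.05). Higher and lower calls numbered 857 and 232 at a pseudocount of 1, 2382 and 1466 at 64, 2916 and 2725 among probe sets above the median level, 3420 and 2913 with an intensity trend, and 26226 and 29 after poly-A scaling; 1927 were lower after median centring. Leaving out 1 array gave 210 to 868 higher, the fewest without central B, and 5 to 181 lower. With the letter as a replicate block no probe set was called by limma (0 higher and 0 lower, against 5532 and 3693 at an unadjusted p under 0.05). As deviations from the region means, all 6 arrays correlated best with their own letter among the other region's arrays, over all probe sets. Above the median level 5 of 6 did. The same-letter correlations were only 0.01 to 0.04 over all probe sets and 0.04 to 0.16 above the median level. These matches all come from the same few correlations and are not independent, so they do not settle whether a letter is 1 mouse. The design does not state it either. Under that replicate block the log2 changes were the same, with 2.69 for Kitl 1415855_at (adjusted p = 0.0921) and 1.72 for 1448117_at (adjusted p = 0.116). Without 1 array they ranged over 2.47 to 2.89 and 1.62 to 1.93. Poly-A scaling brought the dim Kitl probe sets past the threshold, with 1.62 for 1426152_a_at and 1.95 for 1415854_at, and Kit too, with 1.25 for 1452514_a_at and 1.16 for 1415900_a_at. Median centring turned Kit to -0.015 and -0.10, and Zfp523 to -0.056, Clec2d to -0.085, Trmt10c to -0.0074 and Nup93 to -0.056. Poly-A scaling turned Adam19 to 0.10, Prkcb to 0.045, Zfpm1 to 0.050, Flt3 to 0.91, Adam17 to 0.74, Gata2 to 0.39, Cd34 to 0.82 and Cpa3 to 0.59. Flt3 ranged over -0.22 to 0.030 without 1 array, and Mitf was -0.20 by the mean of its probe sets. Median centring and poly-A scaling each move every probe set by the same amount, so their turns of sign follow from the scaling itself. The poly-A controls had a mean log2 signal of 9.47 to 9.59 on endosteal and 10.34 to 10.71 on central arrays. The cause of that difference, and of the Flt3 and Mitf changes, was not tested. Calls of named genes were lost for 28 of 35 without at least 1 array and for 16 by another setting, besides the block. The 2 dim Kitl probe sets had signals of 33.9 to 157, where the added 16 understates a change. This limits what can be read for them, and they are absent from the comparison above the median level.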
